A study of Mus musculus with 8 samples.

Results

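The genes described here are 5 enzymes of the urea cycle and its start (Nags, Cps1, Otc, Ass1 and Asl) together with 4 other genes of the periportal hepatocyte (Gls2, Hal, Sds and Cyp2f2), 9 of 21911 protein-coding genes in the annotation. They were chosen by name, and every accessible interval that overlapped a gene body or the 10 kb on either side of it was assigned to that gene. Intervals within 1 kb of a transcription start site (TSS) were treated as promoter intervals and the others as distal. The 9 loci held 63 of 73710 accessible regions.

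Ammonia released by amino acid breakdown is toxic, and the liver converts it to urea in a cycle that starts in the mitochondrion and ends in the cytosol. The enzymes of this cycle are made mainly by hepatocytes around the portal vein, where blood from the gut enters the liver lobule, whereas hepatocytes around the central vein take up the remaining ammonia to make glutamine. Periportal hepatocytes also carry much of the breakdown of amino acids such as glutamine, histidine and serine. An open promoter or enhancer is where transcription factors can reach the DNA, and the openness of these sites can be followed while hepatocytes leave their resting state to divide.

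Accessibility was measured by ATAC-Seq, in which the Tn5 transposase cuts open DNA, in hepatocytes prepared by collagenase perfusion from C57BL/6 mice on a normal diet (10 to 12 weeks of age in the labels, adult males of the C57BL/6J strain in the study's methods). One group was undamaged liver (0 h), and the other 3 groups had undergone partial hepatectomy (PHx), the removal of part of the liver, 48, 72 or 96 h earlier. Each of the 4 groups had 2 libraries, none of the mice is described as carrying an engineered allele, and the controls are described as healthy, undamaged liver with no mention of a sham operation. The study describes its statistics as based on independent replicates, hepatocytes as taken from 4 mice at each time, and the bulk replicates of 0 and 48 h as biological ones from separate preparations, 3 at each of these times, of which 2 were analysed here. The labels tie no library to an animal, so a p-value below measures the spread between these libraries. The assay averages over all cells of a preparation, so a smaller number of open cells and less open chromatin in each cell cannot be told apart.

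Each library was available as a list of called peaks without read counts, so the depth behind a peak is unknown. Strength was therefore expressed as a rank: the distinct intervals of a library were ordered by the caller's −log10 p, with rank 1 the strongest, and a low rank number means a strong peak. The lists held between 105206 and 154577 distinct intervals, and the −log10 p at rank 50000 lay between 8.05 (48 h replicate 1) and 15.2 (0 h replicate 1). The promoters of the hepatocyte genes Apoa1, Hnf4a and Serpina1a had an interval in all 8 libraries, whereas Alb had one in 3. Of the promoters of other cell types, 1 of 5 Kupffer cell, 3 of 5 endothelial, 4 of 4 stellate, 3 of 4 cholangiocyte and 0 of 3 lymphocyte genes had an interval in any library.

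The loci of the 9 genes were less accessible than regions were in general. Of the 63 regions, 15 (23.8%) were among the 50000 strongest intervals of all 8 libraries, against 38.7% of the 73710 regions. Their median rank was 52433.5, against 38797 over all regions. A library held between 98 and 136 intervals in these loci, of which 27 to 41 were among its 50000 strongest. The 63 regions comprised 10 promoter regions of the 9 genes, 4 promoter regions of neighbouring genes (Sdsl, Gusb, Spryd4 and Tmem101) and 49 distal regions, of which 26 lay in introns and 19 between genes.

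The loci differed widely in how many regions they held. Cps1, a gene of 108 kb, held 16 regions and none of them was among the 50000 strongest intervals of all 8 libraries. Otc, with a locus of 88.7 kb, held a single region, its promoter. Ass1 held 10, Asl and Gls2 7 each, Hal and Sds 6 each, and Nags and Cyp2f2 5 each. Hal, Sds, Asl and Gls2 had 3 regions in each locus that were among the 50000 strongest intervals of all 8 libraries, more than the other loci. This counts presence and not a constant rank. Those of the Sds locus lay in the neighbouring genes Sdsl and Plbd2.

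Promoter strength spanned a wide range among the 9 genes. By median rank over the 8 libraries the order from strongest to weakest was Gls2, Nags, Hal, Asl, Ass1, Otc, Cps1, Sds and Cyp2f2. Asl stood before Ass1 because the stronger of its 2 promoter regions was taken in each library, and at the start site of its own it followed Ass1 (median ranks 33689.5 and 31534.5). The weakest Gls2 value (rank 5249) was stronger than the strongest Nags value (rank 6457). Every other pair of neighbours in this order had overlapping ranges. Gls2 stood above 82.4% of all protein-coding promoters that had an interval, whereas Cyp2f2 stood above 15.1% of them.

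**Figure D1:**
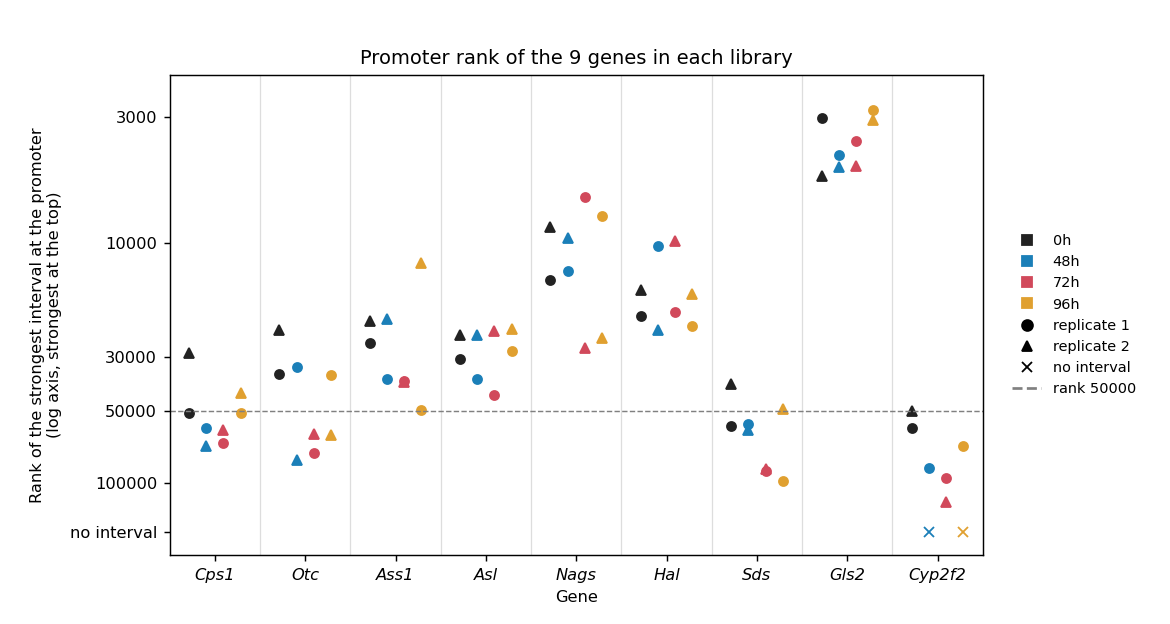
Rank of the strongest interval within 1 kb of the start sites of each gene (vertical axis, logarithmic, strongest at the top) in each of the 8 libraries, with colours for the time after PHx, circles and triangles for replicates 1 and 2 and crosses for libraries without an interval. The Gls2 points lie between ranks 2811 and 5249 at every time, while the 72 h points of Cps1, Otc, Ass1, Sds and Cyp2f2 lie below both 0 h points.

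Nags makes N-acetylglutamate, the activator that carbamoyl phosphate synthetase needs, and its promoter was the strongest of the 5 urea cycle genes. It ranked 14332 and 8611 in the 0 h libraries, 13109 and 9549 in those of 48 h, 6457 and 27308 in those of 72 h, and 7717 and 24952 in those of 96 h (replicates 1 and 2). The groups overlapped at each time, and at 72 and 96 h replicate 1 was stronger and replicate 2 weaker than both 0 h libraries. The 300 bases around its annotated start in RefSeq (GRCm38.p6, plus strand) are shown because they carry a pair of GC boxes (GGGCGG on either strand, in capitals), which begin 132 and 41 bases before the start, and this motif is present in 35.7% of all promoter windows of this length.
Nags promoter, chr11:102145263-102145562: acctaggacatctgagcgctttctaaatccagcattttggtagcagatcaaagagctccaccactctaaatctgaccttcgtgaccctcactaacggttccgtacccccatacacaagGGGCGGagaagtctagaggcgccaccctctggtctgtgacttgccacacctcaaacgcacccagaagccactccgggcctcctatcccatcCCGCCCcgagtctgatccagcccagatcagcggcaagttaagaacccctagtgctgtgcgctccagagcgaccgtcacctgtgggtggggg

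The strongest distal region of Nags lay 3.03 kb upstream (chr11:102142298-102142902, intergenic) and ranked 29939 and 36410 at 0 h. It was weaker in both libraries at 48 h (ranks 53042 and 49621) and 96 h (49767 and 44434) and stronger in both at 72 h (27106 and 23977). None of these differences passed the test described below. A second upstream region, 2.38 kb from the start, ranked 68644 and 24835 at 0 h and 101328 at 48 h replicate 1, with no interval at 48 h replicate 2. With ranks beyond 100000 and missing intervals set to 100001, its 48 h difference in log2 rank was 1.28 ± 0.47 (SE, limma on all 8 libraries, adjusted p = 0.249), the lowest adjusted p of any region in these loci at 48 h. The 0 h libraries of this region differed from each other by more than the groups did. It entered the set of regions only through 0 h replicate 2, so its weaker place at 48 h was partly fixed by that choice.

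Cps1, which makes carbamoyl phosphate from ammonia and commits it to the cycle, had a promoter (chr1:67122780-67123324) that was beyond rank 50000 in 6 of the 8 libraries. It ranked 51312 and 28772 in undamaged liver, 59180 and 70088 by 48 h, 67966 and 60252 by 72 h, and 51121 and 42118 by 96 h. Both libraries at 48 h and both at 72 h were weaker than both 0 h libraries, whereas the 96 h libraries fell between them. The fold enrichment reported by the peak caller was 3.55 and 4.58 before PHx, then 2.56 and 2.62 (48 h), 3.06 and 2.87 (72 h) and lastly 3.81 and 4.50 (96 h), lowest at 48 and 72 h as well.

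The strongest distal region of Cps1 lay 6.23 kb upstream in intergenic DNA (chr1:67116454-67117155). Its ranks were 18582 and 18621 in the 0 h libraries, 54051 and 11458 in those of 48 h, 57773 and 56666 in those of 72 h, and 31487 and 24572 in those of 96 h. The 0 h libraries were nearly equal, both 72 h libraries had left the 50000 strongest intervals, and the 48 h libraries lay on either side of the 0 h values. This was the largest difference among the 63 regions at 72 h (1.62 ± 0.54 in log2 rank, SE) and had the lowest adjusted p of that comparison in these loci, which was 0.383 (limma). The 200 bases around its summit are shown with their matches to C/EBP (TTGCNNAA) and FOXA (TGTTTAC or TATTTAC) in capitals, the letters read by factors that are abundant in hepatocytes. On either strand, C/EBP letters were present in 15.2% and FOXA letters in 9.10% of the 59130 distal windows of this size.
Cps1 upstream region, chr1:67116700-67116899: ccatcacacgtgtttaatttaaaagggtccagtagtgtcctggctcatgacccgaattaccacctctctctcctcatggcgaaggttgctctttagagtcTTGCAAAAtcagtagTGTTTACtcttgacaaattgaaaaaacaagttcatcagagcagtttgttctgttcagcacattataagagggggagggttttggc

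Inside Cps1 the regions went in different directions. An intronic region 8.67 kb from the start (chr1:67130734-67132546) ranked 45409 and 40957 at 0 h with 14369 and 23177 after 48 h and 37604 and 35233 after 96 h. It was thus stronger in both libraries at 48 h and at 96 h, while its 72 h ranks (52253 and 27929) lay on either side of the 0 h values. Its 48 h difference was −1.24 ± 0.51 (SE, limma adjusted p = 0.321). A pair of weaker intronic regions, 2.62 and 16.2 kb from the start, were weaker in all 6 PHx libraries than in both 0 h libraries. Both entered the set of regions only through 0 h replicate 1 (ranks 40373 and 45752). Their weaker place after PHx was therefore partly fixed by that choice. Just past the 3′ end of the gene, 109 kb from the start, a region (chr1:67231380-67232616) ranked 53206 and 52881 in undamaged liver, 38665 and 26457 by 48 h, 20307 and 54344 by 72 h, and 44048 and 30430 by 96 h. It was the only region of the 9 loci to enter the 50000 strongest intervals of both libraries of a later time while missing from those of both 0 h libraries, which it did at 48 h and at 96 h.

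Otc joins carbamoyl phosphate to ornithine in the mitochondrion. Its promoter (chrX:10251977-10252799) ranked 35247 and 23155 before PHx, then 32800 and 80234 (48 h), 75287 and 62326 (72 h) and lastly 35371 and 63387 (96 h). Both libraries at 72 h and both at 96 h were weaker than both 0 h libraries, at 96 h by a narrow margin in replicate 1, and the 48 h libraries were far apart. The fold enrichment was 8.94 and 9.79 in the 0 h libraries, 6.51 and 3.57 in those of 48 h, 4.58 and 5.42 in those of 72 h, and 9.18 and 4.50 in those of 96 h. At 72 h the difference in log2 rank was 1.26 ± 0.48 (SE, limma adjusted p = 0.498). The promoter sequence from RefSeq is shown because it is poor in CpG and because this was the only region of its locus. None of the 10 motifs searched matched in this window.
Otc promoter, chrX:10252055-10252354: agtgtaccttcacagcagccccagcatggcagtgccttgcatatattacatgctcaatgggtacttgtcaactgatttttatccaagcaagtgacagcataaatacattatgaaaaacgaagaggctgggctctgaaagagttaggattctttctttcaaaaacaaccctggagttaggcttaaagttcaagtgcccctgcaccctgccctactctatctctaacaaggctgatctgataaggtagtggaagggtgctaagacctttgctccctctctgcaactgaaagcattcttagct

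Ass1, which links citrulline to aspartate, had a promoter (chr2:31469825-31470590) that was among the 50000 strongest intervals in all 8 libraries. It ranked 26111 and 21077 in undamaged liver, 36958 and 20674 by 48 h, 37642 and 38014 by 72 h, and 49890 and 12097 by 96 h. Both 72 h libraries were weaker than both 0 h libraries, and the 48 and 96 h groups overlapped with 0 h. The strongest distal region of all 9 loci belonged to this gene. It lay 5.44 kb upstream in intergenic DNA (chr2:31464310-31465290) and ranked 9051 and 3630 before PHx, then 23802 and 12776 (48 h), 2164 and 9047 (72 h) and lastly 6213 and 5878 (96 h).

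This upstream Ass1 region was weaker in both libraries at 48 h, with a difference of 1.61 ± 0.71 in log2 rank (SE, limma adjusted p = 0.358). At 72 and 96 h its ranks were back within or above the range of the 0 h libraries. The sequence around its summit is shown because it is the strongest distal site of these genes, and none of the 10 motifs matched in it.
Ass1 upstream region, chr2:31464665-31464864: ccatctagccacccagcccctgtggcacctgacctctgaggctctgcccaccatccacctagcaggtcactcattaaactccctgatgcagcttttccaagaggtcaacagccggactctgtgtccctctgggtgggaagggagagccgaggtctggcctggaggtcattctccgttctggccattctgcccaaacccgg
An intronic region 12.9 kb into Ass1 (chr2:31482333-31483243) did the reverse at 48 h. It ranked 45210 and 40885 in the 0 h libraries, 25005 and 13076 in those of 48 h, 55174 and 53523 in those of 72 h, and 41618 and 76434 in those of 96 h. It was stronger in both libraries at 48 h (difference −1.25 ± 0.49, SE, limma adjusted p = 0.293), and at 72 h both libraries had left the 50000 strongest intervals.

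Asl splits argininosuccinate into arginine and fumarate. The annotation gives its transcripts start sites in 2 promoter regions, of which the upstream one (chr5:130029154-130029756) is shared with the start of Crcp on the opposite strand. At the start site that Asl has to itself (chr5:130023758-130024555) the ranks were 30537 and 24136 in undamaged liver, 36842 and 24087 by 48 h, 47390 and 39058 by 72 h, and 38971 and 22840 by 96 h. Both 72 h libraries were weaker than both 0 h libraries there. The strongest distal region of the Asl locus lay in an intron of Crcp, 4.76 kb upstream of the start shared with Crcp. It ranked 32534 and 21919 in undamaged liver, 44473 and 49678 by 48 h, 24151 and 46169 by 72 h, and 48096 and 24260 by 96 h. It was thus weaker in both libraries at 48 h. The region shared with Crcp ranked 48522 and 50108 before PHx, then 44462 and 39544 (48 h), 43038 and 23201 (72 h) and lastly 28317 and 48441 (96 h), so that all 6 PHx libraries were stronger than both 0 h libraries. These accessibility values cannot assign the shared region to either gene. When the stronger of both promoter regions stood for Asl, as in the plot of promoter ranks, its groups overlapped at every time (ranks 22840 to 43038).

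Gls2, the liver glutaminase that releases ammonia from glutamine, had the strongest promoter of the 9. Its ranks were 3038 and 5249 in the 0 h libraries, 4330 and 4851 in those of 48 h, 3756 and 4791 in those of 72 h, and 2811 and 3077 in those of 96 h, and all groups overlapped. The fold enrichment was between 9.02 and 13.2 in the 8 libraries. Within the gene, 7.57 kb from the start, an intronic region (chr10:128201272-128202300) behaved differently from the promoter. It ranked 11362 and 8512 in undamaged liver, 21366 and 26363 by 48 h, 22801 and 24273 by 72 h, and 22970 and 10822 by 96 h. Both libraries at 48 h and both at 72 h were weaker than both 0 h libraries, and the 96 h libraries lay far apart, one close to the 0 h ranks and one close to those of 72 h.

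The differences of the Gls2 intronic region in log2 rank were 1.27 ± 0.59 at 48 h and 1.26 ± 0.59 at 72 h (SE, limma adjusted p = 0.384 and 0.613). The sequence around its summit held a pair of C/EBP matches (TTGAGCAA, the reverse complement of a TTGCNNAA match), a cAMP response element (CRE, TGACGT, here on the opposite strand) and a CCAAT match near either end, all in capitals. CRE letters were present in 2.50% and CCAAT letters in 25.1% of all distal windows.
Gls2 intronic region, chr10:128201931-128202130: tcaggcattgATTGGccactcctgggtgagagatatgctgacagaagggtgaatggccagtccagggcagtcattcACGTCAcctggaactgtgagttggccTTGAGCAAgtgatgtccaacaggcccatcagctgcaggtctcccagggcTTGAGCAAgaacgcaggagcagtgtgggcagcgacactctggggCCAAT

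Hal removes ammonia from histidine in the first step of its breakdown. Its promoter (chr10:93488175-93489381) ranked 20124 and 15771 before PHx, then 10293 and 23018 (48 h), 19487 and 9805 (72 h) and lastly 22197 and 16327 (96 h), with overlap at every time. A region 3.29 kb upstream was about as strong as the promoter and ranked 16775 and 29152 in the 0 h libraries, 14062 and 12535 in those of 48 h, 14310 and 13369 in those of 72 h, and 13133 and 52244 in those of 96 h. It was stronger in both libraries at 48 h and at 72 h. The Hal promoter is shown because it held 4 different motif matches, for AP-1 (TGANTCA), C/EBP, the CCAAT box and the TATA box (TATAAA), which begin 239, 150, 64 and 28 bases before the start. Of all promoter windows, 7.81% held AP-1, 10.8% C/EBP, 37.4% CCAAT and 13.6% TATA letters.
Hal promoter, chr10:93488518-93488817: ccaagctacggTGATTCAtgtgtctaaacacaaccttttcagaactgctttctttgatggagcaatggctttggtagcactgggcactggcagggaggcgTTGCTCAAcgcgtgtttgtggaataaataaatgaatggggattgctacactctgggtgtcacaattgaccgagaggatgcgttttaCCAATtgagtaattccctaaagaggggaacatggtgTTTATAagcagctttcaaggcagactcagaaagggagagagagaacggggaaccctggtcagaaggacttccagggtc

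Sds turns serine into pyruvate and ammonia. Its promoter (chr5:120476324-120476724) ranked 58001 and 38540 in undamaged liver, 56702 and 59911 by 48 h, 89070 and 87587 by 72 h, and 97889 and 49193 by 96 h. The 72 h libraries were close to each other and weaker than both 0 h libraries, and the 96 h libraries were far apart. The promoter of the neighbouring Sdsl, which encodes a related enzyme and lies 4.85 kb away in the same locus, ranked 27252 and 38470 at 0 h and 52111 and 79108 at 48 h, and its 72 h ranks (27222 and 37585) were close to those at 0 h. Further upstream, 9.25 kb from Sds and in an exon of Sdsl, a region was stronger in both libraries at 72 h (ranks 18773 and 12242) and at 96 h (18435 and 20892) than at 0 h (37842 and 23050).

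Cyp2f2, a cytochrome P450 long used as a marker of periportal hepatocytes, had the weakest promoter of the 9 (chr7:27119598-27120085). It ranked 58827 and 49950 in undamaged liver, 86536 in replicate 1 of 48 h, 95563 and 119357 in the 72 h pair and 70028 in replicate 1 of 96 h, and no interval was called at 48 h replicate 2 and 96 h replicate 2. It was the only one of the 9 promoters that was weaker in all 6 PHx libraries than in both 0 h libraries. Its fold enrichment was 4.15 and 4.02 at 0 h and between 2.59 and 3.99 in the 4 PHx libraries with an interval.

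An intronic region 4.72 kb into Cyp2f2 (chr7:27124381-27124742) showed the same arrangement. It ranked 45595 and 40282 before PHx, then 71983 and 64454 (48 h), 77186 and 53998 (72 h) and lastly 60418 and 88678 (96 h), so it had left the 50000 strongest intervals in all 6 PHx libraries. It was the only region of these loci lost at all 3 times, and it entered the set of regions through the 0 h libraries alone. The strongest distal region of Cyp2f2 by median rank, 9.27 kb into the gene, was weaker in both libraries at 72 h only (ranks 56446 and 57070 in undamaged liver, 71533 and 59493 by 72 h). The intronic region 4.72 kb into the gene and the promoter are shown because both were weaker in all 6 PHx libraries, and none of the 10 motifs matched in either.
Cyp2f2 intronic region, chr7:27124529-27124728: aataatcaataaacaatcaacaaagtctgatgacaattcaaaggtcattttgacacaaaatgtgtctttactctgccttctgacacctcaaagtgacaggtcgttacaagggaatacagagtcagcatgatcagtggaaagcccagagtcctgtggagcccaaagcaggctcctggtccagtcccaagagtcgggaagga
Cyp2f2 promoter, chr7:27119705-27120004: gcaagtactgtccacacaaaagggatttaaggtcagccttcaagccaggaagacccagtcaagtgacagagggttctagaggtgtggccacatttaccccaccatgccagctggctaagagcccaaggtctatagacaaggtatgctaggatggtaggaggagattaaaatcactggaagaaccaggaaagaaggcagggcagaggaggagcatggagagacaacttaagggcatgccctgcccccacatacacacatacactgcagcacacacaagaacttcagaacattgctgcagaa

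**Figure D2:**
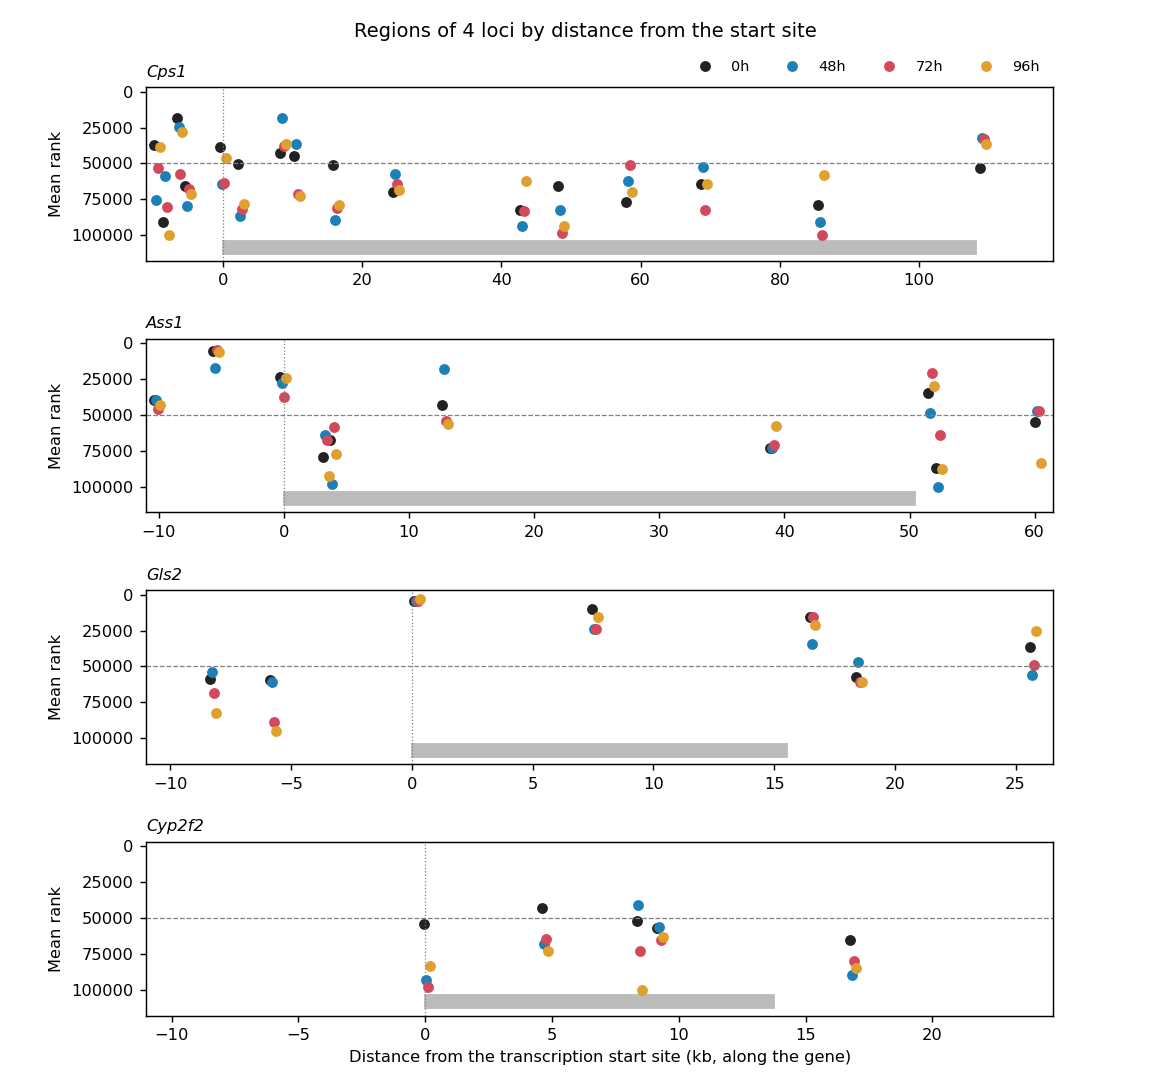
Mean rank (geometric mean of both libraries of a time, strongest at the top, with intervals beyond rank 100000 or not found set to 100001) of each region in the loci of Cps1, Ass1, Gls2 and Cyp2f2, by distance from the transcription start site in kb along the gene, with the gene body as a grey bar and the dashed line at rank 50000. Points of the 4 times are offset slightly sideways, and the Cyp2f2 promoter and the region 4.72 kb into the gene lie lower at 48, 72 and 96 h than at 0 h.

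Set side by side, more of the promoters were weaker than both 0 h libraries at 72 h than at 48 or 96 h, an order that was lost without 0 h replicate 1, and none passed the test across all regions described below. At 48 h, 2 of the 9 promoters (Cps1 and Cyp2f2) were weaker in both libraries than in both 0 h libraries, against 24.7% of the 16412 protein-coding promoters with an interval. At 72 h there were 5 of 9 (Cps1, Otc, Ass1, Sds and Cyp2f2), against a background of 27.1%. At 96 h there were 2 of 9 (Otc and Cyp2f2), against 17.0%, and over all 6 PHx libraries only Cyp2f2, against 6.64%. Asl entered these counts with the stronger of its 2 promoter regions in each library. Counted so, none of the 9 promoters was stronger in both libraries at any of the 3 times, where the background was 14.9%, 14.2% and 12.6%, or in all 6 PHx libraries, where it was 3.72%. Ranking by fold enrichment gave 3 stronger promoters at 48 h (18.0% of all) and 1 at 96 h (13.4%). Percentiles of each list gave 1 at 72 h (25.5%) and 1 at 96 h (20.4%). Counted as 10 separate promoter regions, 2 were weaker and 1 stronger at 48 h, 6 weaker and 1 stronger at 72 h, and 2 weaker and 1 stronger at 96 h, the stronger one being each time the region that Asl shares with Crcp. With 2 libraries in each group the smallest two-sided exact permutation p is 0.333, so these counts carry no such p, and the promoter regions were tested with limma together with all others.

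The contrast between the times rested on single libraries, and its size depended on the scale. Without 0 h replicate 1 the count of weaker promoters was 5 of 9 at each of the 3 times, where the shares over all protein-coding promoters were 39.4% (48 h), 42.1% (72 h) and 32.7% (96 h) under the same condition. At 48 h it was also 5 without 48 h replicate 1 (37.3% of all), 4 without 48 h replicate 2 (40.5%) and 3 without 0 h replicate 2 (35.0%). For 96 h, leaving out replicate 2 of that time gave 5 (38.5%) and leaving out replicate 1 gave 3 (30.7%). When all ranks beyond 50000 were set to one common value, in place of those beyond 100000, there were 0 weaker promoters at 48 h, 2 at 72 h and 1 at 96 h, against 23.2%, 25.4% and 15.8% of all. With fold enrichment there were 2, 5 and 1 at the 3 times (17.2%, 22.6% and 12.8%). With percentiles there were 3, 4 and 1 (19.5%, 14.5% and 10.7%). The count was highest at 72 h on each of these scales.

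The median difference of the 9 promoters in log2 rank from 0 h was 0.24 (48 h), 0.69 (72 h) and 0.27 (96 h), where a positive value means a place further down the list. Over all protein-coding promoters it was 0.05, 0.09 and 0.00. The differences of the single promoters ranged from −0.21 (Hal) to 0.84 (Otc) at 48 h, from −0.37 (Hal) to 1.26 (Otc) at 72 h and from −0.44 (Gls2) to 0.73 (Otc) at 96 h. The median over the 9 promoters in each library corresponded to a rank of 30537 and 23155 in the 0 h libraries, 36842 and 24087 in those of 48 h, 43038 and 38014 in those of 72 h, and 35371 and 24952 in those of 96 h. Both 72 h medians lay beyond both 0 h medians, whereas replicate 2 lay between the 0 h medians at 48 h and at 96 h. The list of 72 h replicate 2 does not carry the run tag that the names of the other 7 lists share, and no label calls this a batch. Without that library the 72 h median difference was 0.68 and 6 of the 9 promoters were weaker (39.7% of all). With ranks beyond 50000 set to one common value the 72 h median was 0.22. Among all protein-coding promoters with a median rank from 25000 to 100000, a band that holds 6 of the 9 (not Gls2, Nags and Hal), 21.2% were weaker and 21.7% stronger in both libraries by 48 h, 27.1% and 22.0% by 72 h, and 18.4% and 17.1% by 96 h.

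The 0 h libraries differed from each other in these promoters, and replicate 2 was the stronger for 8 of the 9. The median of the differences between the 0 h replicates was 0.59 in log2 rank without regard to sign, against 0.40 over all protein-coding promoters. Without 0 h replicate 2 the median difference at 96 h was −0.047, and without 0 h replicate 1 it was 0.69, so the direction at 96 h rested on a single 0 h library, and without 96 h replicate 1 it was 0.057. Ranked by fold enrichment, the 96 h median was −0.053. At 48 h, leaving out replicate 2 of the 0 h pair gave a median of 0.082, and leaving out replicate 1 of that pair gave 0.39. The 72 h median kept its sign without any one of the libraries (0.48 to 0.84). Ranked as a percentile of each list, which allows for the longer lists at 72 h, the 72 h median was 0.34, and 4 of the 9 promoters were weaker in both libraries, against 14.5% of all. The part of list length in the 72 h result was not tested further.

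**Figure D3:**
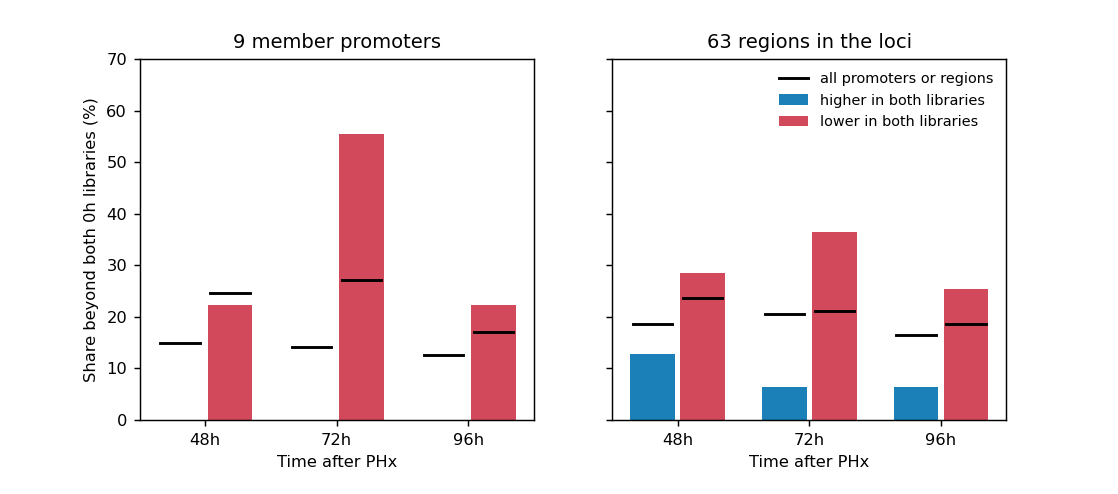
Share in % of the 9 member promoters (left) and of the 63 regions in their loci (right) that were weaker (red bars) or stronger (blue bars) in both libraries of a time than in both 0 h libraries, with a black line at the share among all protein-coding promoters or all regions. The tallest bar is the 55.6% of promoters that were lower at 72 h, and the left panel has no blue bars because none was higher.

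The whole set of 63 regions was tested with limma on log2 ranks, fitted to all 73710 regions and adjusted over all of them by the Benjamini-Hochberg method. None of the 63 regions passed an adjusted p of 0.05 at 48 h, 72 h, 96 h or for all PHx libraries against 0 h, where 0.113%, 0.00678%, 0.00136% and 0.0122% of all regions passed. The lowest adjusted p-values in the loci were 0.249, 0.383, 0.786 and 0.401. Without adjustment, a limma p under 0.05 was reached by 8 regions at 48 h (12.7%, against 11.7% of all regions), of which 6 were weaker and 2 stronger (background 6.24% and 5.48%). It was reached by 4 weaker and 0 stronger regions at 72 h (background 3.39% and 4.39%, both directions 7.78%), by 1 weaker and 0 stronger at 96 h (3.14% and 3.18%, both 6.32%) and by 4 weaker and 0 stronger over all PHx libraries (5.16% and 4.20%, both 9.36%). The standard errors of the differences were between 0.45 and 0.75.

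By position relative to both 0 h libraries, 18 regions were weaker and 8 stronger in both libraries at 48 h, against 23.7% and 18.7% of all regions. At 72 h, 23 were weaker and 4 stronger (background 21.2% and 20.6%), and at 96 h 16 were weaker and 4 stronger (18.7% and 16.4%). The counts depended on the scale, for all regions as well as for these. With percentiles of each list, 20 regions were weaker at 48 h (31.7%, against 18.0% of all) and 10 stronger (15.9%, against 22.5%). At 72 h 10 were weaker (15.9%, against 9.42%) and 13 stronger (20.6%, against 35.7%). At 96 h 7 were weaker (11.1%, against 10.7%) and 10 stronger (15.9%, against 24.7%). With ranks beyond 50000 set to one common value, 8, 11 and 7 regions were weaker at the 3 times (17.3%, 16.0% and 13.9% of all), and ranking by fold enrichment left 33 regions, of which 7, 10 and 7 were weaker (21.5%, 19.6% and 17.2%).

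Single libraries also moved these counts. Without 0 h replicate 1, 32 of the then 61 regions were weaker and 10 stronger by 48 h (36.9% and 31.1% of all), 34 and 9 by 72 h (36.5% and 35.6%), and 32 and 9 by 96 h (33.5% and 30.6%). Without 0 h replicate 2, 20 of the then 57 regions were weaker and 14 stronger by 48 h (35.1% and 27.8%), 27 and 15 by 72 h (34.0% and 31.8%), and 20 and 11 by 96 h (31.3% and 26.7%). At 72 h there were 31 weaker and 13 stronger without 72 h replicate 1 (35.9% and 35.9%), and 30 and 12 without 72 h replicate 2 (34.7% and 34.2%). At 48 h, leaving out replicate 1 or 2 of that time gave 25 or 31 weaker regions (37.9% or 39.9% of all). The stronger ones were then 17 or 14 (35.2% or 34.4%). At 96 h, leaving out replicate 1 or 2 of that time gave 30 or 27 weaker (36.9% or 35.1%). The stronger ones were then 14 or 13 (33.9% or 35.6%).

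The regions that kept one direction over the whole time course were few. Over all 6 PHx libraries 6 regions were weaker and 1 was stronger (5.87% and 4.15%). The 6 were the Cyp2f2 promoter and intron, the pair of Cps1 introns, a region in an intron of Crcp and a region 6.99 kb upstream of Nags. The Crcp intron region lay 2.38 kb upstream of the start that Asl shares with Crcp. The single stronger one was that shared start. All of the 6 but the Crcp intron region were among the 50000 strongest intervals in 0 h libraries only. They entered the set of regions through 0 h alone, so their weaker place after PHx was partly fixed by that choice.

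Few regions entered or left the 50000 strongest intervals in both libraries of a time, although these counts depended on single libraries and on the settings. At 48 h 1 was gained and 2 were lost (background 2.65% and 3.50% of all regions), at 72 h 0 were gained and 4 lost (2.88% and 2.74%), and at 96 h 1 was gained and 1 lost (2.23% and 2.42%). The 48 h losses were the Sdsl promoter and the Cyp2f2 intron. The 72 h losses were the Otc promoter, the Cps1 upstream region and the introns of Ass1 and Cyp2f2, and the 96 h loss was the Cyp2f2 intron. Without 0 h replicate 1 the losses numbered 12 (48 h), 14 (72 h) and 9 (96 h), where 8.86%, 8.14% and 7.48% of all regions were lost under the same condition. Without single libraries of the times compared the gains reached 5, 2 and 5. The 48 h count of 5 came without 48 h replicate 2 (8.10% of all regions gained). The 72 h count of 2 came without 72 h replicate 1 or 2 (7.87% or 6.53%). The 96 h count of 5 came without 96 h replicate 1 (7.88%). Ranked by fold enrichment, 0, 3 and 1 of 33 regions were lost, against 3.32%, 2.65% and 2.21% of all. None was gained at any time by that measure, against 2.57%, 2.80% and 2.08%. With all deposited intervals the losses were 7, 6 and 3 and the gains 2, 4 and 2. The share over all regions was not computed for that setting. A loss here means a fall below rank 50000 and not the end of the peak, and each of these regions still had an interval in both libraries of that time.

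**Figure D4:**
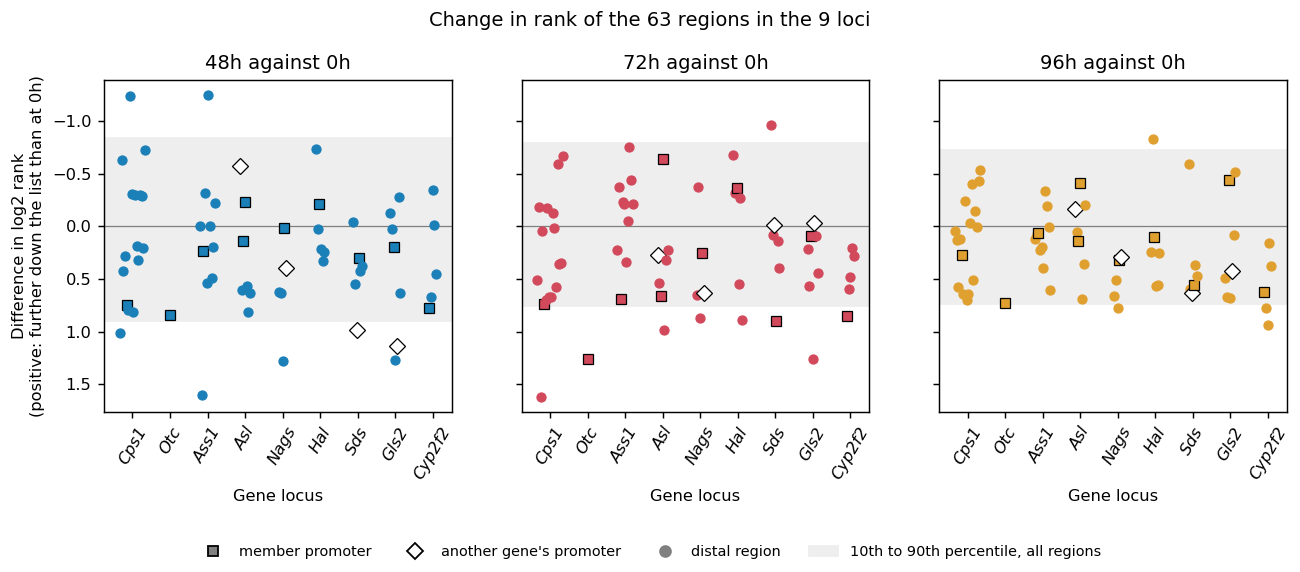
Difference in log2 rank from 0 h for each of the 63 regions, by gene locus (horizontal axis) and time (panels), with the vertical axis inverted so that stronger regions lie higher. Squares are promoters of the 9 genes, open diamonds promoters of neighbouring genes and circles distal regions, the grey band spans the 10th to 90th percentile of all 73710 regions, and the lowest point is the Cps1 upstream region at 72 h (1.62).

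Most of the 9 promoters shared a feature that had played no part in choosing them. In the 300 bases around the start site, the ratio of observed to expected CpG was under 0.6 in 6 of them (Otc 0.068, Cyp2f2 0.10, Cps1 0.13, Asl 0.32, Sds 0.39 and Hal 0.43), against 37.1% of protein-coding promoters with an interval. Nags (0.67), Ass1 (0.69) and Gls2 (0.85) had more. For Asl this window and its rank are those of the start site it does not share with Crcp. The 6 CpG-poor members had a median rank of 52047, against 43653 for CpG-poor promoters in general, and the 3 others had 11329, against 11283. Of the 5 promoters that were weaker in both libraries at 72 h, 4 were CpG-poor. Among all CpG-poor promoters 18.8% were weaker and 15.2% stronger in both libraries at 72 h, and among the CpG-rich ones 31.9% and 13.6%. The CpG content of the member promoters and their position in the 72 h lists are given side by side, and the relation was not tested.

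**Figure D5:**
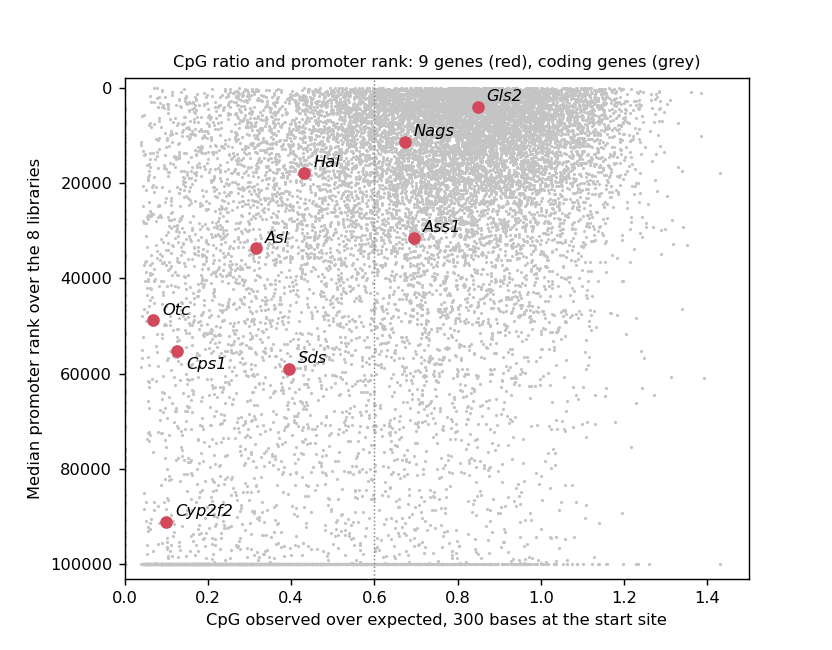
Ratio of observed to expected CpG in the 300 bases around the start site (horizontal axis) and median promoter rank over the 8 libraries (vertical axis, strongest at the top, ranks beyond 100000 at the lower edge) for the 9 genes (red) and all protein-coding promoters with an interval (grey), with a dotted line at a ratio of 0.6. Gls2, Nags and Ass1 lie to the right of the line, and Cyp2f2 is the lowest of the 9.

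Among the 49 distal regions the motif letters are given as counts beside their share of all distal regions, with no test. FOXA letters were present in 6 (12.2%, against 9.10%), C/EBP letters in 6 (12.2%, against 15.2%), AP-1 letters in 4 (8.16%, against 9.01%) and CCAAT letters in 11 (22.4%, against 25.1%). HNF4 (CAAAGTNCA), HNF1, CRE, the glucocorticoid response element (GRE) and GC box letters were present in 1 region each (2.04%, against 3.96%, 1.55%, 2.50%, 0.577% and 6.92%), and TATA letters in 4 (8.16%, against 6.78%). The GRE match lay in the Cps1 intron that was stronger at 48 h, and its sequence is shown with the GRE and a TATA match in capitals.
Cps1 intronic region, chr1:67131600-67131799: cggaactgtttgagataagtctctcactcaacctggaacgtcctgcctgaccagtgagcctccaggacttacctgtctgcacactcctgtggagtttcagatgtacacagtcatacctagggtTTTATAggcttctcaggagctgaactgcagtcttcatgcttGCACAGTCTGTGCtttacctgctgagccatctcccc
The HNF1 match lay in the region 3.03 kb upstream of Nags, shown with the HNF1 and a CCAAT match in capitals because it was weaker in both libraries at 48 and 96 h and stronger in both at 72 h.
Nags upstream region, chr11:102142424-102142623: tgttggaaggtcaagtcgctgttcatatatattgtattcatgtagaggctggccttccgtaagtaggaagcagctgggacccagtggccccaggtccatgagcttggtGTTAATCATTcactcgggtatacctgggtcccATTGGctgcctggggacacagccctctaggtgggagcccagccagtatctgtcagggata

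Other genes of nitrogen handling were spread in both directions at 72 h. Of 12 partners of the cycle (transporters such as Slc25a15 and Slc25a13, Glud1, Car5a and enzymes of histidine and amino acid breakdown), 3 were weaker and 3 stronger in both libraries at 72 h, with a median difference of −0.12, while 2 were weaker and 2 stronger at 48 h and 1 was weaker and 0 stronger at 96 h. Slc25a15, which carries ornithine into the mitochondrion, ranked 4754 and 7392 at 0 h and 3948 and 2619 at 72 h. Car5a, the mitochondrial carbonic anhydrase that supplies bicarbonate to Cps1, ranked 24766 and 14861 in undamaged liver, 27065 and 38670 by 72 h, and 35778 and 38584 by 96 h. Of 6 other periportal genes, 2 were weaker (Pck1 and Hsd17b13) and 1 stronger (Ctsc) at 48 h, 1 was weaker (Hsd17b13) and 0 stronger at 72 h, and 0 were weaker and 1 stronger (Ctsc) at 96 h, where the shares over all protein-coding promoters were those given above. Sdsl and Amdhd1, which are on the partner list, adjoin the Sds and Hal loci, so their regions are not independent of those loci. The difference between the 9 genes and these lists was not tested.

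Genes of the opposite zone were set beside them. Of 10 pericentral genes 4 were weaker and 2 stronger in both libraries at 48 h, and 2 were weaker and 3 stronger at 72 h and at 96 h, with median differences of −0.16, −0.20 and −0.13. Cyp2e1 and Cyp1a2, cytochromes P450 of pericentral hepatocytes, were weaker in all 6 PHx libraries, as Cyp2f2 was. Oat and Tbx3 were stronger in all 6. Of the 6 general hepatocyte markers, 4 were weaker in both libraries at 48 h, the same number at 72 h and 3 at 96 h, and none was stronger, with median differences of 1.01, 0.71 and 0.64 (24.7%, 27.1% and 17.0% of all protein-coding promoters were weaker). Of the 4 stellate cell genes 0 were weaker at any of these times, and 2 were stronger at 48 h (Des and Reln), 0 at 72 h and 1 at 96 h (Reln), with median differences of −0.29, −0.21 and −0.17. Of the endothelial, Kupffer cell and cholangiocyte genes, 3 of 5, 1 of 5 and 3 of 4 had an interval in any library. None of these was weaker or stronger in both libraries at any time. The others had no interval and so could not be called in either direction. The endothelial median at 48 h (−0.43) was the value of Pecam1. That gene had no interval at 0 h or in 48 h replicate 1 and ranked 55276 in 48 h replicate 2. The part of the movement of these marker promoters in that of the 9 genes was not tested.

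The protein-coding promoters whose log2 ranks followed the median of the 9 genes most closely over the 8 libraries were those of Cxcl12, a chemokine (Pearson r = 0.97), Atp5g3, a subunit of the mitochondrial ATP synthase (r = 0.97), Plcg1, a phospholipase C (r = 0.96), Zbtb17 and Tlcd2 (r = 0.96 each). Of 15509 promoters compared, 50 had an r above 0.9. The 8 points share the same libraries and list lengths, so these values describe likeness in these libraries only.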

How the data were processed

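The series held 8 bulk ATAC-Seq libraries of mouse hepatocytes, 2 at each of 0, 48, 72 and 96 h, grouped by their labels. Per the study's methods, the authors ran the ENCODE pipeline for this assay, which trimmed reads, mapped them to mm10 with Bowtie2, removed duplicates and called peaks with MACS2. The deposited lists are 1 for each library. Per the deposited lists, a peak carries a score for display (not used), a fold enrichment over local background, −log10 p and −log10 q values, and a summit offset. No read counts were among them, so depth is unknown, no counting interval could be computed and the study's own count-based test could not be run.

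Lines with the same interval were collapsed to the highest −log10 p and ranked within the library. Ranks beyond 100000 and missing intervals were set to 100001. The 50000 strongest intervals of each library were merged (overlap of at least 1 bp) into consensus regions, and a region's rank was that of the best overlapping interval. Genes came from the mm10 GENCODE annotation, and sequences from GRCm38.p6 and the RefSeq promoter table, which held Ass1, Cyp2f2, Hal, Nags and Otc of the 9 genes (Cps1, Asl, Sds and Gls2 were not matched). Motifs were sought on both strands in 300 bases of promoter and 200 bases around each summit.

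limma 3.58.1 (R 4.3.3) with an intensity trend was fitted to log2 ranks of all regions and 8 libraries without covariates, with Benjamini-Hochberg adjustment and a threshold of 0.05. Python 3.11.15, numpy 2.4.6, pandas 2.3.3 and matplotlib 3.10.9 did the rest. The text names all 9 genes (1 further gene of the list is not reported here), each promoter, the strongest distal region of each (Otc had none), every region gained or lost, and the 5 promoters most alike. Regions weaker in all PHx libraries, other distal regions and the neighbouring promoters named were chosen after their values were seen. The genes, lists and tests were chosen with earlier results of these data known. The 3 later times share the 0 h libraries. Alternatives covered the ranking measure, the number of intervals, the rank floor, the interval width, a q filter, the locus and promoter windows, the overlap, the scale and single libraries.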

Additional observations from a re-analysis of the deposited data

Results flagged for a closer look

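A pair of times differed in direction at 3 of the 63 regions (4.76%), in that both libraries of one time were stronger and both of another weaker than both 0 h libraries. Of all regions 5.88% did so. The intronic Ass1 region 12.9 kb from the start was stronger at 48 h and weaker at 72 h, with a difference between these times of 1.59 in log2 rank (limma adjusted p = 0.319). The Gusb promoter in the Asl locus did the same, with a difference of 0.84 (limma adjusted p = 0.716). The region 3.03 kb upstream of Nags was stronger at 72 h and weaker at 48 and 96 h, with differences of −1.01 from 48 to 72 h (limma adjusted p = 0.590) and 0.88 from 72 to 96 h (limma adjusted p = 1).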

How the results depend on the processing

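No member region passed limma's adjusted p of 0.05 in any of the 4 comparisons under any setting run. The replicate numbers did not pair the libraries (correlation of same-numbered deviations −0.06 to 0.09 over the 6 pairs of times), and a fit with the replicate number as a block called 0 member regions in each comparison, while it called 202, 26, 2 and 23 of all regions in place of 83, 5, 1 and 9. Over all regions the count was 0 in each comparison with all deposited intervals or with the floor after rank 50000, and 1, 0, 0 and 0 when ranked by fold enrichment. It was 150, 51, 25 and 38 with 200 bp around each summit, 125, 15, 1 and 9 with 25000 intervals, 82, 10, 3 and 75 with normal scores, 9, 3, 0 and 1 with percentiles, and 0 to 2 without any single library. The member lists hold 2 libraries per time, no read counts and no depth, and a rank shifts when other peaks of the list change, which limits every value here.

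The median promoter difference at 72 h was 0.22 with the floor after rank 50000 and 0.34 as a percentile within the list (an alternative chosen after seeing the data), and at 96 h it was −0.053 when ranked by fold enrichment. Without single libraries it ranged from 0.082 to 0.39 at 48 h, from 0.48 to 0.84 at 72 h and from −0.047 to 0.69 at 96 h. Promoters weaker in every library (counted under each alternative after seeing the data) numbered 0 at 48 h, 2 at 72 h and 1 at 96 h with the floor after rank 50000. At the same times they numbered 2, 5 and 1 with fold enrichment and 3, 4 and 1 with percentiles. Without single libraries they numbered 2 to 5 at 48 h, 5 to 6 at 72 h and 2 to 5 at 96 h. Leaving out 0 h replicate 1 gave 5 at 48 h and 5 at 96 h, and a median of 0.69 at 96 h. Leaving out 48 h replicate 1 or 2 gave 5 or 4 at 48 h, and leaving out 96 h replicate 2 gave 5 at 96 h.

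Regions weaker than both 0 h libraries, reported as 18, 23 and 16 (48, 72 and 96 h; counted under each alternative after seeing the data), were 7, 10 and 7 with fold enrichment, 7, 9 and 5 with 25000 intervals, 32, 39 and 27 with all intervals, 8, 11 and 7 with the floor after rank 50000, 34, 35 and 27 with the 50 kb window and 20, 10 and 7 with percentiles. Stronger ones, reported as 8, 4 and 4, were 7, 4 and 2 with fold enrichment, 15, 10 and 11 with all intervals, 11, 14 and 8 with the 50 kb window and 10, 13 and 10 with percentiles. Without single libraries weaker regions ranged from 17 to 32, 22 to 34 and 15 to 32, and stronger ones from 7 to 17, 4 to 15 and 4 to 14. Shares over all regions were not computed with 25000 intervals or all intervals, and the 50 kb window takes in more regions. Counts under these settings cannot show whether the members moved more than regions in general.

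Counts of gained and lost regions were small and moved with most settings. Shares over all regions were not computed with 25000 intervals, all intervals or 50% coverage. Counts under these settings cannot show whether the members moved more than regions in general. Gained regions at 48 h, reported as 1, were 0 with fold enrichment and 2 each with 25000 intervals, all deposited intervals and 50% coverage. At 72 h, reported as 0, they were 4 with all deposited intervals and 2 with the 50 kb window. At 96 h, reported as 1, they were 0 with fold enrichment or 25000 intervals, 2 with all intervals and 2 with the 50 kb window. Lost regions at 48 h, reported as 2, were 0 with fold enrichment, 1 with 25000 intervals, and 7 both with all intervals and with 50% coverage. At 72 h, reported as 4, they were 2 with 25000 intervals and 8 with the 50 kb window. At 96 h, reported as 1, they were 0 with 25000 intervals, 3 with all intervals, 2 with 50% coverage and 2 with the 50 kb window. Without single libraries the gained regions ranged from 1 to 5 at 48 h, 0 to 2 at 72 h and 1 to 5 at 96 h, and the lost ones from 2 to 12, 4 to 14 and 1 to 9, the highest lost counts all without 0 h replicate 1. Leaving out a library makes the condition cover fewer libraries, and why this library gave the highest counts was not tested. Leaving out any library of the times compared moved at least 1 of their counts by more than 1.5 times. The 50 kb window covers more regions. Other causes were not tested. For the single promoters, 201 values under the other settings and 190 without one library moved by less than the spread between replicates, whereas 15 and 26 moved by more, and none of the differences that separated the groups changed sign.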
